A study of Capra hircus with 4 samples.

Results

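In this study, muscle of Cashmere goats given ractopamine was examined by RNA-sequencing (RNA-seq), and the library labelled treatment 3 was compared with the control library. Both libraries were made from longissimus dorsi, the long muscle along the back, of goats aged 2 months. The treated goats received ractopamine by mouth at 1 mg/kg for 28 dosing days, followed by 21 withdrawal days, and the control library came from goats without the drug. The 2 libraries belong to a series of 4, in which the other 2 are further treated libraries. The paper sequenced muscle from several days of dosing and withdrawal, but the labels give no day for a library, so treated library 3 is called by its number. The number of goats behind a library is also not given in the labels. With a single library on each side the treatment could not be tested, and every ratio compares these 2 libraries and not the treatment with its absence.

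The authors assembled the reads into unigenes, which are sequences built without a genome, and paired 21220 of 59774 unigenes with goat proteins. The expected counts of the unigenes carrying the same goat gene name were summed, which gave 11208 gene names. Each library was rescaled to CPM, counts per 1000000 of its own counts on these names. Genes with at least 50 counts in the 2 libraries together were described, and these were 6580 of the 11208 (58.7%). They held 99.1% of the named counts in the control library and 99.3% in treated library 3. At the border, 38 genes had exactly 50 counts and were described, and 26 genes with 49 counts were not. A ratio is the CPM in treated library 3 divided by the CPM in the control library. The range in parentheses is its exact 95% Clopper-Pearson interval, which covers counting error only and not the difference between animals.

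Ractopamine is a β2-agonist. Such drugs act through a receptor that activates adenylate cyclase, and the cAMP that is formed switches on protein kinase A and, in the nucleus, genes controlled by CREB and CREM. Skeletal muscle fibres range from slow and oxidative to fast and glycolytic. Slow and fast fibres have their own forms of myosin, troponin and calcium-handling proteins. β2-agonists are known for enlarging muscle and for shifting fibres towards the fast type, and FOXO factors with their ubiquitin ligases are known for breaking muscle protein down.

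Sequencing depth differed in a way that matters for these values. The control library held 8533046 expected counts, of which 71.3% lay on named goat genes, and treated library 3 held 6675218, of which 40.4% did. The named counts behind the ratios were therefore 6086312 and 2697657, and 3 counts, the limit that a count of 0 allows, equal 0.493 CPM in the control library and 1.11 CPM in treated library 3. Unigenes paired with mitochondrially encoded proteins carry no gene name in the table and took 22.2% of all counts in the control library and 49.7% in treated library 3. For comparison, treated library 1 had 3991046 named counts and treated library 2 had 133809, so a count of 3 is 22.4 CPM in the latter. Markers of skeletal muscle were abundant in both libraries, for example muscle creatine kinase CKM at 51044 and 82090 CPM and desmin DES at 14273 and 12691 CPM. 

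Of the 6580 genes, 320 (4.86%) were at least 2-fold higher in treated library 3 and 1756 (26.7%) were at least 2-fold lower, while 4504 lay between. The ratio of the median gene was 0.714 (log2 -0.49), and the quartiles were 0.483 and 1.05. The interval lay wholly above 1 for 1011 genes, wholly below 1 for 3329, and held 1 for 2240. The 20 genes with most control counts took 33.6% of the named counts in the control library and 45.6% in treated library 3. When the median gene was set to a ratio of 1, 833 genes were at least 2-fold higher and 841 at least 2-fold lower. Over 6 other scalings the median gene moved by -0.82 to 0.49 on the log2 scale, and the direct median of 16 of 31 gene lists changed its side of 1 under at least 1 of them. Therefore, lists are read below against the median gene, a difference that these scalings do not alter. Counts of list members past 2-fold are read against the 4.86% higher and 26.7% lower over all genes. In muscle tissue, fewer cells of a type and less RNA per cell cannot be told apart.

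**Figure D1:**
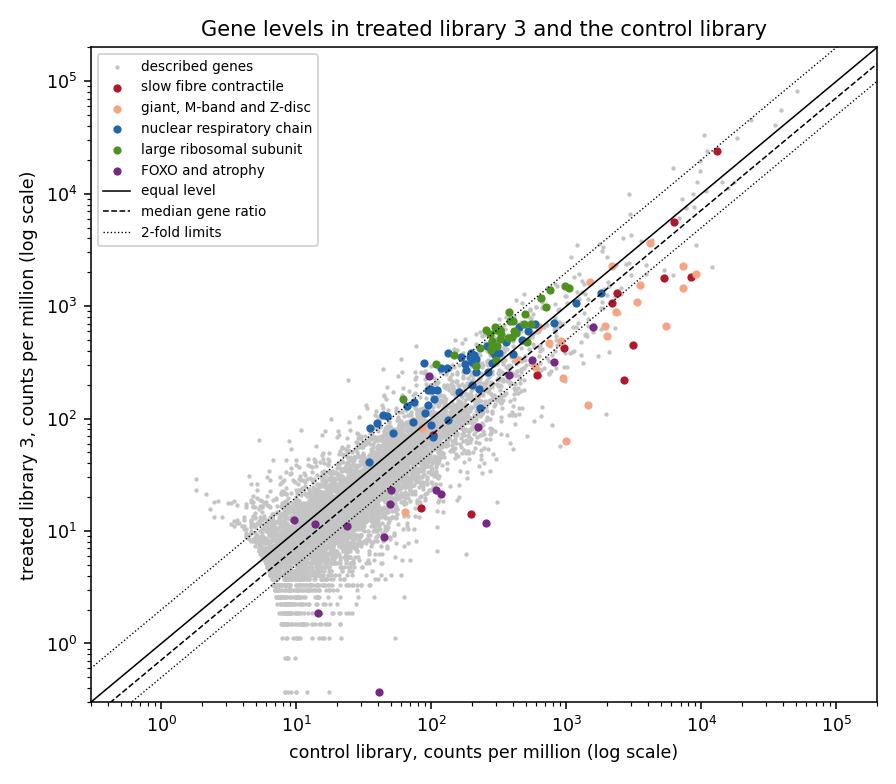
CPM of the described genes in the control library (x axis) and treated library 3 (y axis), both on log scales, with 5 gene lists in colour. The solid line marks equal levels, the dashed line the median gene ratio of 0.714 and the dotted lines the 2-fold limits. Slow fibre, giant sarcomere and atrophy genes lie mostly below the dashed line, large ribosomal subunit genes above it, and the 3 genes at 0 in treated library 3 are not drawn.

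The genes furthest apart were taken from both ends, ranked by the bound of the interval nearest to 1. Among the 12 highest, APOLD1, an endothelial gene responsive to stimulation, had 11 counts in the control library and 78 in treated library 3 (1.81 and 28.9 CPM, ratio 15.998, 8.47 to 33.4). ID1, an inhibitor of DNA binding by differentiation factors, was at 5.26 and 64.1 CPM (ratio 12.2, 8.33 to 18.4). The matrix protein CILP stood at 24.3 and 222 CPM (9.13, 7.62 to 11.01), and IGFBP-5, which binds insulin-like growth factors, at 43.5 and 276 CPM (6.33, 5.50 to 7.32). PPP1R3C, a subunit that targets protein phosphatase 1 to glycogen, was at 59.6 and 338 CPM (5.66, 5.01 to 6.41). The transferrin receptor TFRC, which takes up iron, had 13 and 58 counts (10.1, 5.45 to 20.03). The other 6 were TMEM88, C27H8orf4, TMSB10, S100A4, KLF4 and TPM4, with ratios from 5.44 to 7.25.

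In the other treated libraries, which share the same control library, these genes were not alike. ID1 was at 77.7 CPM in treated library 1 and 172 CPM in treated library 2, and APOLD1 at 26.3 CPM in treated library 1, all above the control level. TFRC had 7 counts (1.75 CPM) and 0 counts in treated libraries 1 and 2, and stood above the control in treated library 3. In treated library 2, where 3 counts are 22.4 CPM, the 0 cannot be told from the 21.5 CPM of treated library 3. IGFBP-5 was at 85.4 CPM in treated library 1 and 67.3 CPM (9 counts) in treated library 2, both below its level in treated library 3.

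Among the 12 lowest, FOXO1, a transcription factor that drives muscle protein breakdown, had 251 counts in the control library and 1 in treated library 3 (ratio 0.00899, 0.000227 to 0.0505). Pyruvate dehydrogenase kinase PDK4, which holds back glucose oxidation, was at 1954 CPM in the control library and 110 CPM in treated library 3, 17.7-fold lower (15.8 to 19.9). The muscle-specific ubiquitin ligase FBXO32 (atrogin-1) was at 253 and 11.9 CPM (21.3-fold lower, 15.0 to 31.2). The deubiquitinase USP13 had 1104 and 17 counts (28.8-fold lower, 17.9 to 49.6). FKBP5, a co-chaperone of steroid receptors induced by glucocorticoids, was at 305 and 18.2 CPM (16.8-fold lower, 12.7 to 22.8). The stretch-responsive genes ANKRD2 (890 and 57.1 CPM) and CSRP3 (2674 and 219 CPM), both typical of slow fibres, were 15.6-fold and 12.2-fold lower. The M-band protein MYOM3 was 15.7-fold lower. PM20D2 had 328 and 3 counts (ratio 0.0206, 0.00423 to 0.0608), PRUNE2 was 24.0-fold lower and ABHD2 16.4-fold lower. DRD1 had 95 counts in the control library and 0 in treated library 3. It was 14.0-fold lower when the 0 is set at 3 counts, and at least 11.2-fold lower by the exact interval. The other treated libraries also had 0 counts of DRD1, but in treated library 2 the interval of its ratio reaches 1.80.

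FKBP5 and ABHD2 were low in treated library 3 while treated library 1 was near the control: FKBP5 stood at 211 CPM and ABHD2 at 88.4 CPM there, against 305 and 109 CPM in the control library. USP13 was low in both, with 2.76 CPM in treated library 1 and 6.30 CPM in treated library 3. The plot of these 24 genes shows each library's own level.

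**Figure D2:**
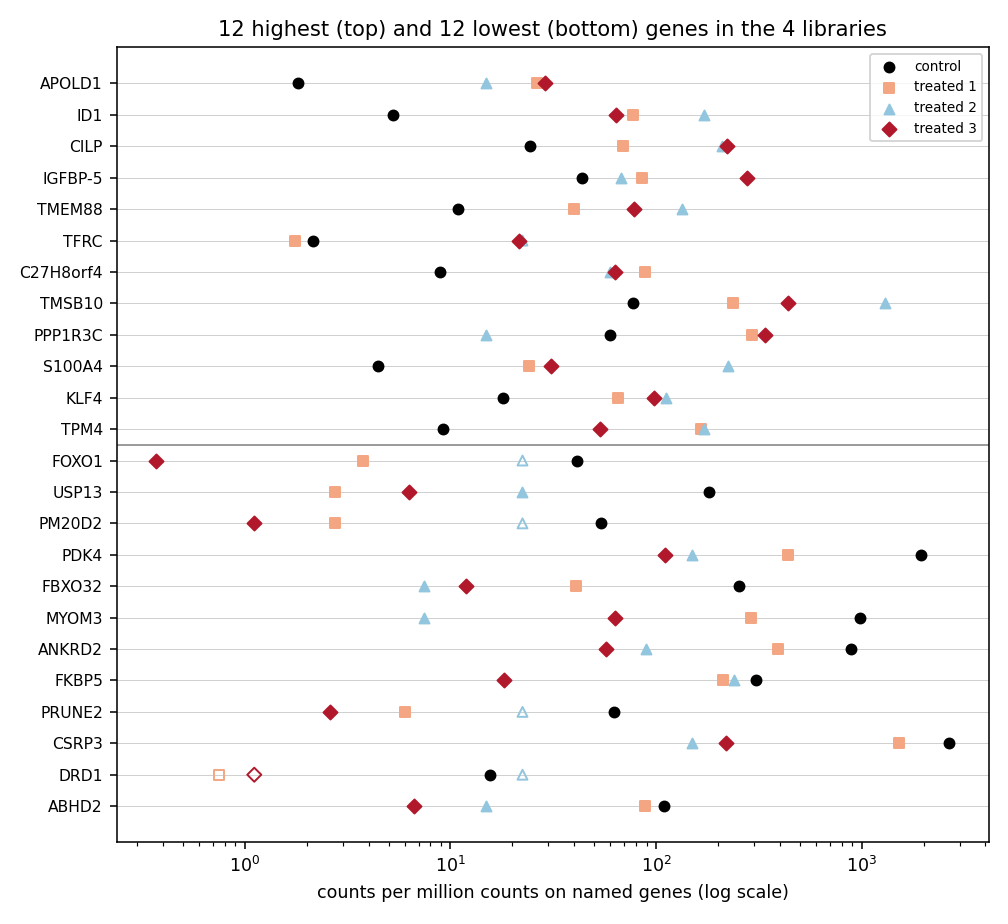
CPM on a log scale (x axis) of the 12 highest and 12 lowest genes in the control library and the 3 treated libraries, 1 point a library, with open symbols for 0 counts drawn at 3 counts. In the upper block the control point lies left of the treated library 3 point for every gene, as the selection requires, and TFRC is the gene there whose treated library 1 point lies left of the control.

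The contractile proteins of slow and fast fibres were compared by reading the same protein in its slow and fast form. The names in the authors' pairing are not reliable here, because closely related muscle proteins were sometimes paired with the wrong member. The unigene holding 57179 of the 79769 control counts named TNNC1 (slow troponin C) matched its protein at 71% identity and has fast troponin C, TNNC2, as its best nucleotide match. Likewise, the main unigene named ACTA2 matches skeletal actin ACTA1, LOC100861163 matches MYLPF, and the main unigene of LOC100860775 matches TNNI2. The first 60 coding bases of the light chains and of the unigenes concerned are shown in lower case, with the start codon in capitals, so that each can be told from its partner. They were read from the deposited sequences.
MYL2, slow regulatory light chain: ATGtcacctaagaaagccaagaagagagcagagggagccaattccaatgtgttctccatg
MYLPF, fast regulatory light chain, paired as LOC100861163: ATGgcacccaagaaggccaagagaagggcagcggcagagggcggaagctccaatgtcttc
MYL3, slow essential light chain: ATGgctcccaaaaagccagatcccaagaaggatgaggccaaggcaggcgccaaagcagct
MYL1, fast essential light chain: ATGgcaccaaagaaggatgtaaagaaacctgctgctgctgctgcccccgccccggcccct
TNNC2, fast troponin C, paired as TNNC1: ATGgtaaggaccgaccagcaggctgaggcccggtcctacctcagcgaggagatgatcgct
TNNI2, fast troponin I, paired as LOC100860775: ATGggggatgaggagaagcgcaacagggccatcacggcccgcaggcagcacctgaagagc

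The coding sequences of MYL2 and MYLPF were identical at 360 of 498 aligned bases (72.3%), and those of MYL3 and MYL1 at 408 of 570 (71.6%). The slow and fast forms stood on opposite sides of a ratio of 1. The slow regulatory light chain MYL2 had 50534 counts in the control library and 4848 in treated library 3, a ratio of 0.216 (0.210 to 0.223), and 8799 and 247 counts in the other treated libraries. Its fast partner LOC100861163 (MYLPF) had 66808 and 64080 counts (2.16, 2.14 to 2.19), and 99731 and 2510 in the others. MYL3, the slow essential light chain, had 1193 and 38 counts (0.0719, 0.0506 to 0.0992), and fast MYL1 had 17576 and 26618 counts (3.42, 3.35 to 3.48). In each pair the slow form was lower and the fast form higher in treated library 3.

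With symbols taken from the best nucleotide match, the median symbol of 7171 had a log2 ratio of -0.43. Troponin showed the same order: fast TNNT3, TNNI2 and TNNC2 had ratios of 3.15, 2.78 and 2.30, and slow TNNT1, TNNI1 and TNNC1 of 0.897, 0.575 and 0.678. Slow myosin-binding protein C, MYBPC1, was at 0.337 and fast MYBPC2 at 0.868. The slow calcium pump ATP2A2, which returns calcium to the sarcoplasmic reticulum, was at 0.144 and the fast pump ATP2A1 at 0.979. The calsequestrins, which store that calcium, were at 0.192 for slow CASQ2 and 1.44 for fast CASQ1, the myozenins of the Z-disc at 0.402 (MYOZ2) and 0.865 (MYOZ1), and the tropomyosins at 0.506 (TPM3) and 2.00 (TPM1). In all 10 pairs drawn, from which the myosin heavy chains were left out, the slow form had the lower ratio. By the same match the heavy chains had the opposite order, with 1.38 for the slow chain (OMYHCS) and 0.808 for fast MYH2 (OMYHC2A). Of the 208420 control counts of OMYHCS, 140550 lay on the unigene named MYH4, whose type is uncertain, as described below. The pairs were chosen with earlier results of these data known, so this count is a description.

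**Figure D3:**
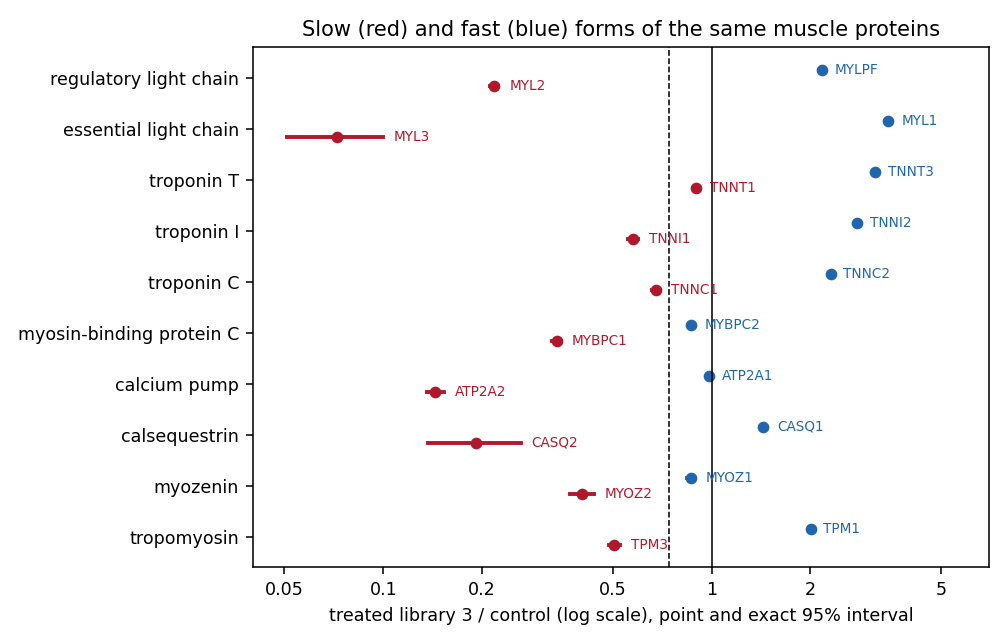
Ratio of treated library 3 to the control library (x axis, log scale) for the slow form (red) and the fast form (blue) of 10 muscle proteins, by best nucleotide match, with exact 95% intervals. The solid line marks a ratio of 1 and the dashed line the median of all symbols, and every slow form lies left of its fast partner.

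Counted by the authors' names, 9 of 13 slow fibre contractile genes were at least 2-fold lower and none higher, with a median ratio of 0.400, which is 0.84 below the median gene on the log2 scale. Of 11 described fast fibre genes, 2 were at least 2-fold higher and none lower, with a median of 0.974, 0.45 above the median gene. The gene named TNNC1, mostly TNNC2 as shown above, was the highest of the slow list with 1.83. The myosin heavy chains could not be separated as well. LOC102181869, an uncharacterized protein by its name, was spread over 7 unigenes with ratios from 0.061 to 0.347. The best nucleotide match is MYH6 for the unigene at 0.061 and a slow myosin heavy chain for the other 6. The unigene named MYH4, a fast heavy chain, had 140550 and 120846 counts (ratio 1.94, 1.92 to 1.95), but it matched that protein at 83% identity and its best nucleotide match is that same slow heavy chain, so the types of both genes remain uncertain. MYH2, the heavy chain of fast oxidative fibres, was at 374 and 300.3 CPM (0.804, 0.741 to 0.871).

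Giant proteins and proteins of the Z-disc and M-band, which hold the sarcomere together, were low. Of 23 described genes, 15 were at least 2-fold lower and none higher, with a median ratio of 0.377, 0.92 below the median gene. XIRP1 and XIRP2, actin-binding proteins of cell junctions, were 10.9-fold (9.85 to 12.2) and 8.25-fold lower. NRAP was 5.10-fold lower and filamin C, FLNC, was at 9114 and 1917 CPM, 4.75-fold lower. Nebulin NEB, which runs along the thin filament, had 44656 counts in the control library and 6097 in treated library 3 (0.308, 0.2999 to 0.316), and its 6 unigenes had ratios from 0.034 to 0.328. Titin, LOC102173234, was mostly carried by 1 unigene of 20348 bases with a ratio of 0.755. Telethonin TCAP (1.05), LMOD3 (1.05) and MYOM2 (1.09) stayed near the control level.

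XIRP1 and FLNC differed between treated libraries. XIRP1 was at 1453 CPM in the control library, 12696 CPM in treated library 1 and 133 CPM in treated library 3. FLNC was at 9114, 14622 and 1917 CPM in the same order. NEB was at 7337, 2498 and 2260 CPM. Both XIRP1 and FLNC were thus above the control in treated library 1 and below it in treated library 3, whereas NEB was below it in both.

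Among 17 genes of calcium release and reuptake, 3 were at least 2-fold lower and 1 higher, against 26.7% and 4.86% over all genes. The lower ones were ATP2A2, CASQ2 and the release channel RYR1. The higher one was ORAI1, a plasma membrane calcium channel, with 142 and 128 counts and a ratio of 2.03 (1.59 to 2.60). The median was 0.940, which lay 0.40 above the median gene and 0.25 above genes of like length on the log2 scale. RYR1 was at 9067 and 3503 CPM (0.386, 0.378 to 0.395). The fast pump ATP2A1 was at nearly equal levels, 10761 and 10478 CPM. Membrane skeleton and nuclear envelope giants had a median of 0.652, with 4 of 11 at least 2-fold lower, among them MACF1 (0.144) and dystrophin DMD (664 and 70 counts, 0.238). The share over all genes is 26.7%, and the list lay 0.13 below the median gene but 0.25 above genes of like length on the log2 scale.

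Genes of energy supply differed by pathway. Of 21 glycolysis and glycogen genes, 1 was at least 2-fold higher and none lower, with a median ratio of 1.04, 0.55 above the median gene. Phosphoglycerate mutase PGAM2 was at 2971 and 6537 CPM (2.20, 2.16 to 2.25), GAPDH at 18289 and 31474 CPM (1.72) and aldolase ALDOA at 35353 and 40902 CPM (1.16). Phosphorylase kinase PHKA1 was lowest with 0.558. Of 11 genes of creatine and nucleotide energy transfer, none passed the 2-fold limit, and CKM had a ratio of 1.61 (1.60 to 1.62).

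Nuclear-encoded subunits of the respiratory chain were above the median gene in 51 of 53 cases, with 9 at least 2-fold higher and none lower and a median of 1.44. ATP5J2 and ATP5E, small subunits of ATP synthase, had ratios of 3.49 (3.13 to 3.90) and 2.86 (2.60 to 3.13). The 2 members with most counts, ATP5B (0.723) and ATP5A1 (0.907), were not high, and NDUFS1 was lowest with 0.543. The list stood 1.01 above the median gene, and 0.51 after the median of genes of like unigene length was subtracted. The 6 mitochondrially encoded proteins with at least 50 counts all took more of the total counts in treated library 3, from 1.71-fold for cytochrome c oxidase subunit III to 3.82-fold for subunit II. These are shares of all counts, whereas the nuclear subunits were scaled to named counts. With the total of all counts as the scale, the nuclear median loses 0.82 on the log2 scale and lies below 1.

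Genes of the TCA cycle and of fatty acid oxidation were read as a joint list. Its 33 genes had 9 members at least 2-fold lower, a share near the 26.7% over all genes, and none higher. The median of 0.729 lay 0.03 above the median gene and 0.04 above genes of like length on the log2 scale. The low members were PDK4, PDHA1 of pyruvate dehydrogenase, and 7 genes of fatty acid oxidation. Of these, carnitine palmitoyltransferase CPT1B, the gate for fatty acids into mitochondria, had 1408 and 117 counts (5.33-fold lower, 4.41 to 6.50), ACADL 230 and 15 counts (0.147), CPT2 203 and 23 counts (0.256) and HADHA 7844 and 988 counts (0.284). Citrate synthase CS, of the TCA cycle, was at 454 and 346 CPM (0.762).

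FOXO factors and genes of muscle atrophy were low as a group. Of 17 described genes, 12 were at least 2-fold lower and 1 higher, with a median ratio of 0.391, 0.87 below the median gene and 0.91 below genes of like length. Beside FOXO1 and FBXO32, FOXO3 had 663 and 63 counts (0.214, 0.163 to 0.278) and the stress-induced sestrin SESN1 723 and 57 counts (0.178). The autophagy receptor SQSTM1 was at 814 and 318 CPM (0.391), and polyubiquitin UBB at 1586 and 658 CPM (0.415). DDIT4, an inhibitor of mTOR, was the member that was higher, at 95.3 and 238 CPM (2.50, 2.23 to 2.80).

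TRIM63 (MuRF1), the second muscle ubiquitin ligase, had 1357 counts in the control library, 6629 and 4 in treated libraries 1 and 2, and 227 in treated library 3. It was therefore low in treated library 3 (0.377, 0.326 to 0.435) and high in treated library 1. FBXO32 had 1537, 163, 1 and 32 counts in the same order and was below the control level in each treated library.

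Several of the low genes are known to be induced by glucocorticoids or fasting, and a list of such genes was written after their values had been seen, so its count is a description and no support. Of 20 described members, 14 were at least 2-fold lower and 1 higher, with a median of 0.284. They included glutamine synthetase GLUL (4765 and 238 counts, 0.113), HMOX1 (423 and 15 counts, 0.0800), ZBTB16 (0.122), KLF9 (0.182) and TSC22D3 (0.425). The higher member was DDIT4 (2.50). The other 5 did not pass the 2-fold limit: TXNIP (1.07, 1.02 to 1.13), PER1 (1.22, 0.989 to 1.51), ANGPTL4, UCP3 and SLC25A25. The log2 ratios of the last 3 were 0.19, -0.45 and 0.73.

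Genes of insulin, IGF and mTOR signalling were also low, with 9 of 17 at least 2-fold lower, none higher, and a median of 0.484, 0.56 below the median gene. The insulin receptor INSR had 220 and 12 counts (0.123, 0.0626 to 0.219), the AMPK subunit PRKAB2 97 and 3 counts (0.0698, 0.0141 to 0.210), and MTOR 677 and 110 counts (0.367). The glucose transporter SLC2A4 was near the control with 0.898 (0.765 to 1.05). After genes of like length were taken into account, the median difference of this list was -0.22.

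The cAMP pathway, on which β2-agonists act, was examined through its feedback genes and CREB targets. Of 15 described genes, 5 were at least 2-fold lower and 1 higher, against 26.7% and 4.86% over all genes. The median was 0.625, 0.19 below the median gene. With a minimum of 200 counts the median was instead 0.60 above that of all genes, with unigenes of at least 80% identity 0.51 above and with TPM 0.68 above, so no direction can be given for the list. NR4A1, an orphan nuclear receptor induced by cAMP, had 284 and 518 counts (4.12, 3.55 to 4.77), and the phosphatase DUSP1 504 and 420 counts (1.88, 1.65 to 2.14). The phosphodiesterases PDE4B (990 and 160 counts, 0.365), PDE4D (633 and 126, 0.449), PDE7A (0.465) and PDE8A (0.393), which degrade cAMP, were at least 2-fold lower. PDE4C, a phosphodiesterase of the same list, was near the control with a log2 ratio of 0.08. PDE4B is not a firm value, because it reversed to a log2 ratio of 0.05 when unigenes of under 80% identity were left out.

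CREM, SIK1 and ATF3 showed a large contrast between treated libraries. CREM was at 38.9 CPM in the control library, 462 CPM in treated library 1 and 82.2 CPM (11 counts) in treated library 2. In treated library 3 it was at 44.5 CPM, and the ratio of 1.14 had an interval from 0.909 to 1.43. SIK1 stood at 25.3 CPM without the drug, 129 CPM in treated library 1 and 28.5 CPM in treated library 3. ATF3 was at 23.0, 134 and 28.9 CPM. For these 3 genes the interval for treated library 3 held 1.

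Of 15 immediate early genes, which respond first to many stimuli, 3 were at least 2-fold higher and 2 lower, with a median of 1.24, 0.80 above the median gene. The higher ones were KLF4 (110 and 265 counts, 5.44), IER3 (30 and 44 counts, 3.31, 2.03 to 5.45) and JUNB (51 and 65 counts, 2.88). MYC had 95 counts in the control library and 9 in treated library 3, against 484 in treated library 1 (0.214 for treated library 3, 0.0948 to 0.423). FOSL2 had 500 and 49 counts (0.221), and FOS 823 and 239 (0.655). Of 10 protein kinase A genes, 3 were at least 2-fold lower and none higher, a share near the 26.7% over all genes. Their median was 0.582, which lay 0.29 below the median gene but 0.06 above genes of like length on the log2 scale. The catalytic subunit PRKACA had 745 and 196 counts (0.594) and adenylate cyclase ADCY9 had 726 and 105 (0.326).

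Heat shock proteins and chaperones had a median of 0.625, with 10 of 25 at least 2-fold lower, against 26.7% over all genes, and none higher. Their median differed by 0.02 from genes of like length on the log2 scale. αB-crystallin CRYAB, which protects the Z-disc, was at 6205 CPM in the control library, 22899 CPM in treated library 1 and 1880 CPM in treated library 3 (0.303, 0.294 to 0.312). HSPB8 was at 1804, 4112 and 631 CPM, and its co-chaperone BAG3 at 416, 780 and 107 CPM. HSF2 was lowest with 158 and 12 counts (0.171). The cognate chaperone HSPA8 was near the control with 0.917.

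Myogenic regulators were mixed, with 5 of 11 at least 2-fold lower and 1 higher, against 26.7% and 4.86% over all genes. The median of 0.664 lay 0.09 below genes of like length on the log2 scale. MEF2A had 113 and 5 counts (0.0998, 0.0318 to 0.240), MYF6 1556 and 262 counts (0.380) and myogenin MYOG 178 and 87 counts (1.10, 0.843 to 1.43). IGF2 was higher on few counts, 25 and 30 (2.71, 1.54 to 4.80). Of 12 clock genes, 5 were at least 2-fold lower and 1 higher, with a median of 0.733, 0.05 above genes of like length.

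Ribosomal protein genes were above the median gene in all 58 described cases, 35 of the large and 23 of the small subunit. The medians were 1.72 and 1.57, and 8 and 3 members were at least 2-fold higher with none lower. RPL22 was highest with 2.84 (2.56 to 3.15), and RPL34 had 2.51. With the total of all counts as the scale, these medians lose 0.82 on the log2 scale and lie below 1. After genes of like length were taken into account, the lists stood 0.72 and 0.52 above. Mitochondrial ribosomal proteins had a median of 1.10 with 3 of 68 at least 2-fold higher, and MRPL40 was highest with 2.85.

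Translation factors were nearer to the median gene, with a median of 0.796 and 7 of 34 at least 2-fold lower, against 26.7% over all genes. EIF5 (1980 and 196 counts, 0.223), EIF3A (0.265) and EIF4G3 (0.298) were lowest, and TPT1 and EEF1A1, with most counts, were at 1.37 and 0.885. Of 37 proteasome genes, 11 were at least 2-fold lower and 1 higher, and the lower share is near the 26.7% over all genes. Their median of 0.667 lay 0.10 below the median gene on the log2 scale. The 3 inducible catalytic subunits of the immunoproteasome, PSMB8 (1.76), PSMB9 (1.91) and PSMB10 (2.80), were with the activator subunit PSME2 (1.87) the 4 highest in this list. They were singled out after their values had been seen, and PSMB9 rests on 39 and 33 counts. PSME4 was lowest with 0.224.

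Splicing factors and hnRNPs had a median of 0.640 and 9 of 33 members at least 2-fold lower, near the share over all genes, and the median was 0.05 below genes of like length. Chromatin regulators were lower, with 13 of 21 at least 2-fold lower, none higher and a median of 0.418. The coactivators NCOA2 (68 and 8 counts, 0.265) and EP300 (152 and 19 counts, 0.282) were lowest, and HDAC5 was at 0.953. This list lay 0.77 below the median gene and 0.54 below genes of like length.

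Markers of other cell types in the muscle were examined next. All 11 endothelial markers lay above the median gene, with 2 at least 2-fold higher and a median of 1.78, and their summed level was 433 CPM in the control library and 639 CPM in treated library 3. VWF, the most counted, was at 179 and 182 CPM (1.02), PECAM1 at 67.2 and 108 CPM (1.60) and endomucin EMCN had 63 and 71 counts (2.54, 1.79 to 3.63). A further list of endothelial genes was written after APOLD1 and TMEM88 had been seen high and holds both, so its count is a description and no support. It had 12 of 18 at least 2-fold higher, among them RAMP2 (94 and 192 counts, 4.61), CD93 (51 and 115 counts, 5.09) and SH2D3C (5.64).

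Fibroblast markers had a median of 1.27, with LUM (315 and 469 counts, 3.36) and DPT (2.39) at least 2-fold higher, but the collagen COL1A1 had 98 and 37 counts (0.852, 0.567 to 1.26). Of 25 genes of collagen, laminin and matrix, 8 were at least 2-fold higher and none lower, with a median of 1.13, 0.66 above the median gene. SPARC, a collagen-binding protein, had 343 and 647 counts (4.26, 3.73 to 4.87), the laminin LAMB2 506 and 706 counts (3.15), and the basement membrane collagens COL4A1 and COL4A2 had ratios of 2.21 and 2.01. Laminin LAMC1 was lowest with 0.522.

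Smooth muscle and pericyte genes had a median of 1.27, and KCNJ8, a potassium channel of pericytes, had 15 and 49 counts (7.37, 4.06 to 14.2). MYH11 (0.759), LMOD1 (0.825), DES (0.889) and NOTCH3 (0.960) had ratios below 1, but all 9 described members lay above the median gene. The gene named ACTA2 (1.42) is counted in that median but is mostly skeletal actin, as described above, and DES is also a skeletal muscle gene. Small cytoskeletal and S100 genes of non-muscle cells were listed after their values had been seen, so their count is a description and no support. At least 2-fold higher were 10 of 14, for example TMSB10 with 77.6 and 441 CPM (5.68, 5.10 to 6.34). Vimentin VIM had 678 and 575 counts (1.91), and S100A10 was below the control with 0.616.

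Markers of blood and immune cells were few. No gene of the red blood cell, B and plasma cell or T and NK cell lists reached 50 counts, and their summed levels were 4.44, 4.27 and 0.986 CPM in the control library and 7.04, 12.97 and 1.85 CPM in treated library 3. Of 11 paired myeloid genes, 2 were described, CD74 with 98 and 109 counts (2.51, 1.89 to 3.33) and LAPTM5 with 82 and 64 counts (1.76), and the list summed to 33.7 and 73.8 CPM. The adipocyte list summed to 47.0 and 49.7 CPM, and its 2 described members lay on opposite sides, adiponectin ADIPOQ with 75 and 64 counts (1.93) and fatty acid synthase FASN with 142 and 37 counts (0.588). The Schwann cell gene PMP22 had a ratio of 1.68. The part of these cell types in the ratios above was not tested.

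**Figure D4:**
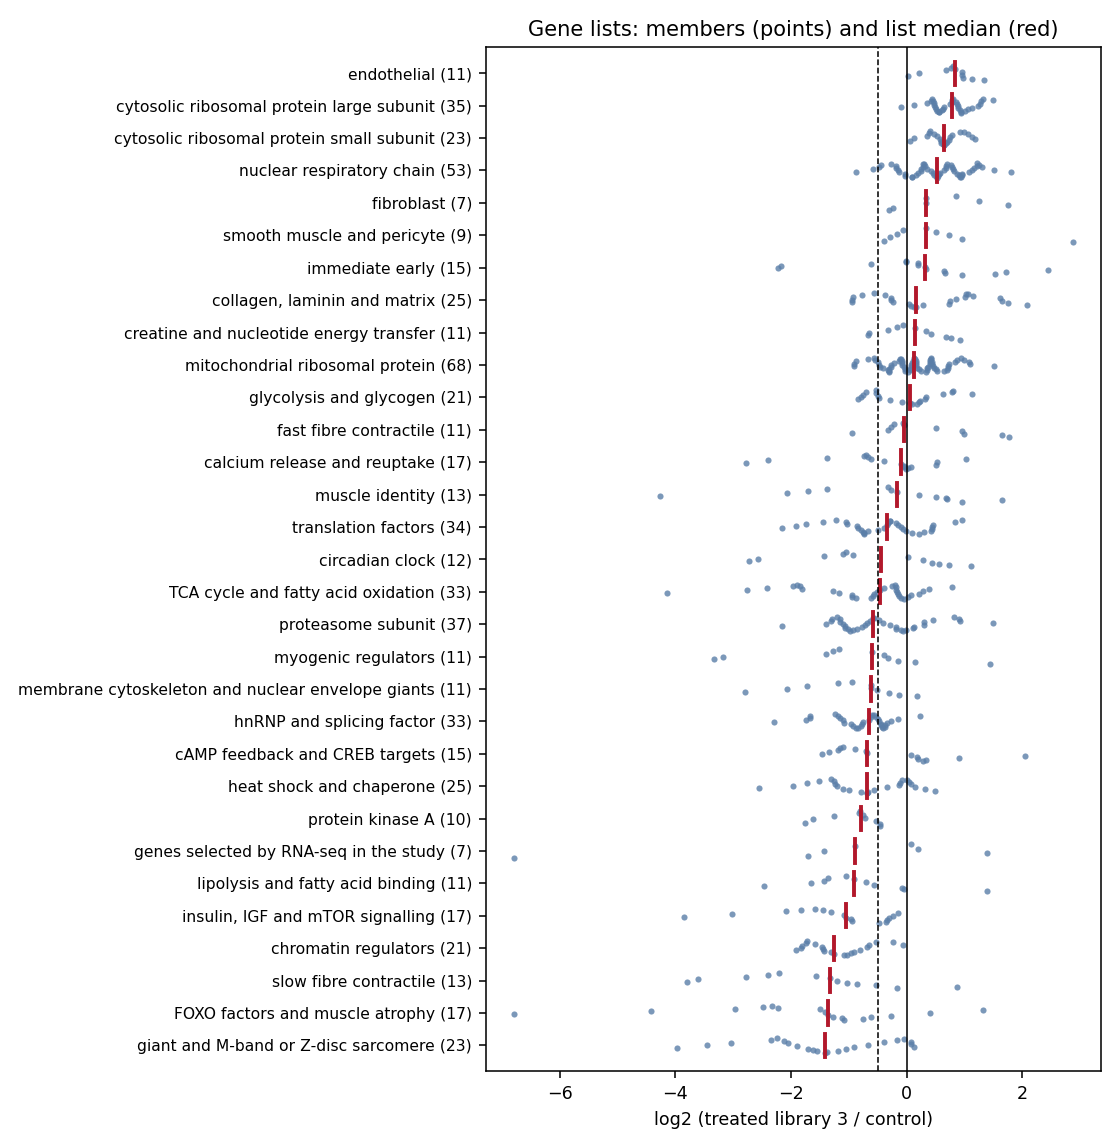
Log2 ratio of treated library 3 to the control library (x axis) for the described members of 31 gene lists (points), with each list's median as a red bar and the number of members in parentheses. The dashed line is the median of all 6580 genes (-0.49) and the solid line no difference, and medians run from -1.41 for giant, M-band and Z-disc genes to 0.83 for endothelial genes.

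Genes of lipolysis and fatty acid binding had a median of 0.535, 0.40 below genes of like length on the log2 scale. At least 2-fold lower were 5 of 11, and 1 was higher, against 26.7% and 4.86% over all genes. FABP5, a fatty acid carrier, was the higher member with 562 counts in the control library, 1774 and 96 in treated libraries 1 and 2, and 650 in treated library 3 (2.61, 2.33 to 2.93). The lipase HSL had 67, 10, 2 and 11 counts, a ratio of 0.370 (0.177 to 0.706) for treated library 3. PLIN3 had 75 and 6 counts (0.180), ACSL1 1317 and 186 (0.319) and lipoprotein lipase LPL 223 and 94 (0.951, 0.739 to 1.22).

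The study selected 8 genes on this series, so the list was not chosen independently of these libraries, and 7 of them reached 50 counts. The ratios given are those of these deposited counts. FOXO1, NEB and HSL were at least 2-fold lower and FABP5 higher in treated library 3. The paper reported HSL and MYH9 as down-regulated and the other selected genes, FOXO1 and NEB among them, as up-regulated. FOXO1 and NEB thus ran opposite to the paper's direction here, and the reason was not tested. The non-muscle myosin MYH9 had 1140 and 274 counts (0.542, 0.474 to 0.619), which is past the study's lower limit of 0.6. FABP5, with a ratio of 2.61, did not reach the study's upper limit of 3. PDE4C, with 1707 and 800 counts (1.06, 0.971 to 1.15), and CREM (1.14) had intervals that held 1. LOC102185492 had 7, 193, 15 and 21 counts in the control library and treated libraries 1 to 3, under the minimum for a ratio.

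The ratio varied with the length of the longest unigene of a gene. In 5 bins of 1316 genes ordered by length, the median ratio was 1.10, 0.810, 0.707, 0.618 and 0.546, from a median length of 1035 bases to 4409 bases. The share at least 2-fold lower went from 12.8% in the shortest bin to 40.7% in the longest, and the share at least 2-fold higher from 12.5% to 1.29%. Over the 6580 genes, Spearman's rho with length was -0.37, against 0.08 with GC content and 0.04 with the control level per kb. These are descriptions over genes of the same 2 libraries. Medians across bins of GC content ran from 0.679 to 0.771. The part of length in the lists was not tested. Against genes of like length, the slow fibre list lay 1.02 below, the fast fibre list 0.83 above and endothelial markers 1.47 above on the log2 scale. Other lists came close to genes of like length or changed side: the cAMP list went from 0.19 below the median gene to 0.02 above genes of like length, and heat shock genes likewise.

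**Figure D5:**
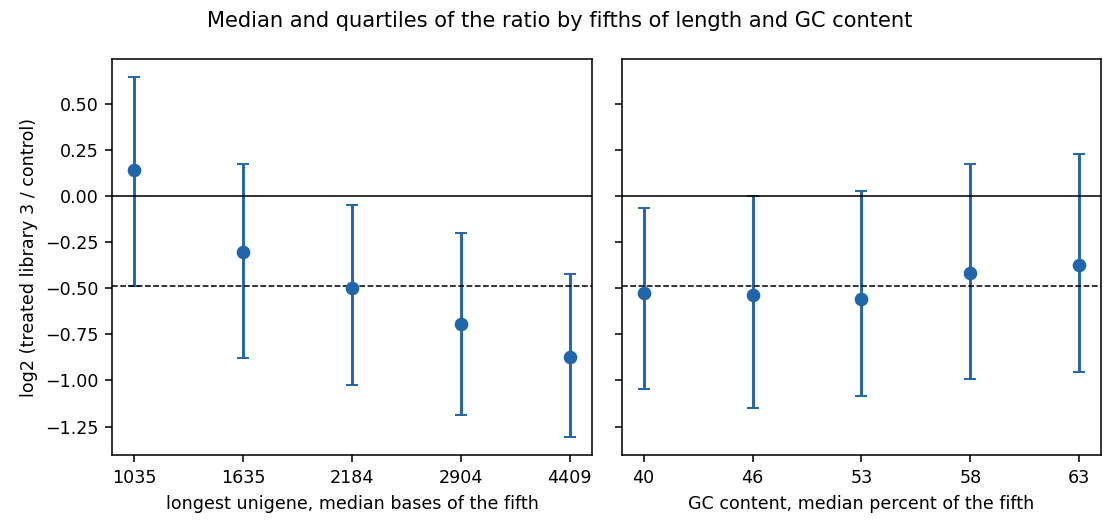
Median (points) and quartiles (bars) of the log2 ratio of treated library 3 to the control library (y axis) in 5 bins of 1316 genes by longest unigene length (left) and GC content (right), labelled with the median of each bin. The ratio goes from above 0 in the shortest bin to -0.87 in the longest, and stays between -0.56 and -0.38 over GC content.

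Unigenes of the same gene often gave different ratios, which sets a limit that counting intervals do not show. In 387 genes with at least 2 unigenes of 50 counts, the log2 ratios of the 2 most counted unigenes differed by a median of 1.12, and 167 pairs (43.2%) lay within 2-fold of each other. Spearman's rho between the 2 log2 ratios was 0.24. Of 129 genes whose most counted unigene was at least 2-fold lower, 67 had the other unigene at least 2-fold lower too. In 2 pairs the unigenes were past the 2-fold limit in opposite directions. MYH2 is an example, with ratios of 0.290, 0.589, 0.748 and 1.53 in its 4 unigenes.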

How the data were processed

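RNA-seq was made from longissimus dorsi of ractopamine-treated and control goats, with 1 library a side here. The authors assembled reads into unigenes without a genome. FastQC 0.10.1 is named in the submitters' processing notes, and the assembler, counting tool and goat annotation are not given in the sources used here. Per the file headers, the deposited expected counts are estimated fragments per unigene, and all of them were whole numbers. The deposited TPM and FPKM values are the same counts scaled by the authors for length and library size, and were used as alternatives only. The deposited pairing gives the percent identity of each unigene with a goat protein.

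Expected counts were summed by gene name and rescaled to the named total. The 25 paired unigenes without a gene name (22.2% of control and 49.7% of treated library 3 counts) stayed out of the sums. Ratios carry exact 95% Clopper-Pearson intervals, and a library at 0 was set to 3 counts. Named genes were the 12 highest and 12 lowest, with symbols not starting with LOC and at least 80% identity, ranked by the interval bound nearest 1. For each list of at least 3 described members, the highest, the lowest and the 2 most counted were eligible, and other genes named as examples were chosen after their values were seen. The members and lists were chosen with earlier results of these data known. With 1 library a side no model was fitted, and nothing in the labels says how many animals a library holds. Scaling, minimum count, limits, identity, unigene choice, table and unit were varied, with edgeR 4.0.16 in R 4.3.3 giving TMM factors. Python 3.11.15, numpy 2.4.6, pandas 2.3.3, scipy 1.17.1 and matplotlib 3.10.9 were used, and the steps were tested on simulated data. No per-sample column of another series was present.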

Additional observations from a re-analysis of the deposited data

Results flagged for a closer look

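Counts outside the named goat genes were larger in treated library 3 than in the control library. Paired unigenes without a gene name, which carry mitochondrially encoded proteins, took 49.7% of all counts in treated library 3 and 22.2% in the control library. As shares of all counts, cytochrome c oxidase subunit I was 2.27-fold, subunit II 3.82-fold, NADH dehydrogenase subunit 1 2.78-fold, subunit 4 2.55-fold and subunit 5 2.14-fold higher. The same unigenes took 37.5% and 84.3% in treated libraries 1 and 2. Unigenes paired with no goat protein took 9.86% of all counts in treated library 3 and 6.45% in the control library. Both values come from 1 library a side, and the difference was not tested.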

How the results depend on the processing

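The main counts were 320 genes at least 2-fold higher and 1756 at least 2-fold lower. Under other scalings they were 833 and 841 with the median ratio set to 1, 738 and 940 with TMM factors, 657 and 1032 without the 20 most counted genes in the sum, and 60 and 4252 with the total of all expected counts. The share of calls that were higher was 15.4% in the main scaling, 49.8%, 44.0%, 38.9% and 1.39% in these. In scalings added after seeing the data, they were 74 and 4088 with unnamed pairs kept in the sums (1.78% higher) and 82 and 3846 with the sum over ribosomal protein genes (2.09%). With a minimum of 200 counts they were 160 and 854, with a minimum of 1 count 1572 and 2814, with limits of 4 and 0.25 41 and 400, and with the interval wholly past the limit 155 and 726. With the study's limits of 3 and 0.6 they were 102 and 2500 (3.92% higher). The other settings stayed within 1.5 times of the main counts. PDE4B turned to a log2 ratio of 0.051 with identity of at least 80%, and the gene named ACTA1 to 0.509 with symbols of the best nucleotide match, where the symbol covers another unigene. Of 75 named genes past 2-fold, 73 kept their direction under 18 settings and 45 stayed past 2-fold. Relative to the median of all genes, 553 list medians moved by under 1.5 times and 5 by more, among them the cAMP list (0.60, 0.51 and 0.68 log2 above it with a minimum of 200 counts, with identity of at least 80% and with TPM, against -0.19). No paired analysis was possible because there is 1 library a side, and no replicate could be left out. Depth limits genes near the minimum, since 3 counts are 1.11 CPM in treated library 3.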
